A study of Mus musculus with 36 samples.

Results

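The 597 introns described here had a high share of unspliced reads in wild-type myeloid progenitors of the mouse. They were chosen from a table of 219945 introns by their values in 9 wild-type libraries, 3 each of CMP (common myeloid progenitors), GMP (progenitors of granulocytes and monocytes) and MEP (progenitors of megakaryocytes and red cells). An intron was taken when at least 10 reads crossed each of its exon-intron borders and at least 10 reads were spliced across it in every one of the 9 libraries, and when its mean mis-splicing index (MSI) over them was at least 30%. The MSI is the share of unspliced reads, 100 times the reads over the 2 borders, divided by those reads plus 2 times the spliced reads. The read minimum alone was met by 7430 introns, of which 6833 had a lower mean MSI and serve as the comparison set. Because the MSI in these 9 libraries chose the introns, it is given as a description and supports no test.

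The study set Zrsr2 knockout (KO) male mice beside wild-type (WT) male littermates on the C57BL/6 background. Zrsr2 is an X-linked gene for a protein that recognises 3′ splice sites, and Zrsr1 is its close relative. CMP, GMP and MEP were sorted from the bone marrow of 3 KO and 3 WT mice, and embryonic fibroblasts (MEF) were grown from 3 KO and 3 WT male embryos. Lineage-negative Kit-positive (Lin-Kit+) marrow cells from KO or WT mice were cultured and transduced with the hairpin sh1 or sh10 against Zrsr1 or with a control hairpin, once in each of 2 experiments. Polyadenylated RNA was sequenced in all 36 libraries. The age of the mice is not given in the sources used here, and Zrsr1 has no intron in the table, so its depletion was not checked.

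Intron retention is the presence of a whole intron in an otherwise spliced transcript. Many such transcripts stay in the nucleus, where the intron is called detained and can be removed later, and others reach the cytoplasm, where a stop codon inside the intron can direct them to nonsense-mediated decay. Blood cells are known to use it: granulocytes and erythroblasts retain sets of introns as they mature, and several splicing regulators control their own protein level through a retained intron. A few introns are removed by a separate minor spliceosome that reads U12-type splice sites, and Zrsr2 is known for its part in the recognition of their 3′ ends.

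Zrsr2 itself fitted the labels, with 0 to 0.08 CPM (spliced read counts scaled to an equal total per library) in KO progenitors and 0 to 0.46 in KO MEF, against 23.8 to 34.2 in WT progenitors and 23.7 to 28.7 in WT MEF. In Lin-Kit+ cells it was 0.0887 to 1.52 CPM in KO and 19.2 to 25.9 in WT libraries. Spliced reads numbered 44083233 to 84832431 per progenitor library, 43514139 to 61124920 per MEF library and 30481450 to 43345548 per Lin-Kit+ library. The median number of reads per chosen intron was 274 to 485, 145 to 193 and 109 to 207 in these 3 kinds of library, so single values are least certain in Lin-Kit+ cells. Markers of fibroblasts and of granulocytes and monocytes matched the labels. The 6 fibroblast genes summed to 64600 to 87700 CPM in KO MEF and 61200 to 71900 in WT MEF, against 4.7 to 44.7 in progenitors. The 6 granulocyte-monocyte genes summed to 26300 to 31600 in GMP and 24.7 to 55.5 in MEP. A set of 4 progenitor genes summed to 1240 to 1400 CPM in WT CMP, 392 to 729 in WT MEP and 67.2 to 278 in WT MEF. For 3 B cell genes the sum was 46 to 71.8 CPM in KO MEF and 45.9 to 72.3 in WT MEF, and at most 5.67 in any other library. Mature neutrophil genes summed to 1740 to 10400 CPM in the Lin-Kit+ cultures and to no more than 86.5 in any progenitor library. In bulk RNA, fewer cells of a type and less RNA per cell cannot be told apart.

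The sequences below show what such an intron looks like and where its splice sites lie. Whole sequences were available for introns spanned by an exon of another GENCODE M21 transcript, and 3 short ones of high MSI are printed 5′ to 3′ on the transcribed strand of mm10, with the first 6 and last 3 bases in capitals. Intron 12 of Pcsk4 (chr10:80322849-80322989, − strand; a proprotein convertase) had a mean MSI of 74.67%, intron 11 of Dennd6b (chr15:89187051-89187147, − strand; a Rab guanine nucleotide exchange factor) 72.33%, and intron 3 of Gtpbp6 (chr5:110106784-110106869, − strand; a GTP-binding protein) 67.13%. All 3 lie in the coding region, start with GT, end with AG and hold a stop codon in the reading frame.
Pcsk4 intron 12: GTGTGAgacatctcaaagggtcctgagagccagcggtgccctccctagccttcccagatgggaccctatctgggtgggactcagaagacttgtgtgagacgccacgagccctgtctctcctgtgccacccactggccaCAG
Dennd6b intron 11: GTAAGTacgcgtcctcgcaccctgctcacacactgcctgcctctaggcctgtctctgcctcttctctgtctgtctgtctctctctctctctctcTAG
Gtpbp6 intron 3: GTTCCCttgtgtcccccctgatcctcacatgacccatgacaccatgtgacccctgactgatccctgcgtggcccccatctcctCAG

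Another 2 kinds of member are shown by their ends, the first 15 and last 25 bases. Clk1 and Clk4 encode related kinases that phosphorylate SR splicing factors, and their intron 3 was retained in both genes (Clk1 chr1:58420212-58421082, − strand; Clk4 chr11:51272023-51273077, + strand). Both begin with the bases GTATGA. The other 3 are introns whose ends match U12-type sites, in Tcea2 (chr2:181686247-181686597, + strand), Tepsin (chr11:120096970-120097508, − strand) and Pcyt2 (chr11:120612084-120612462, − strand). Capitals mark the first 6 bases for the CLK introns and the first 8 for the U12-type ones, which is the U12-type 5′ splice site, with the last 3 bases of each.
Clk1 intron 3, start: GTATGAgtgcctttt
Clk1 intron 3, end: ggtgccgcccacttgacgtgtcCAG
Clk4 intron 3, start: GTATGAgtggtttgt
Clk4 intron 3, end: tggtgctgcccacttgccgttcCAG
Tcea2 intron 6, start: ATATCCTTtgtacag
Tcea2 intron 6, end: caggtgggtccttaaacacctgCAC
Tepsin intron 2, start: GTATCCTTctgcact
Tepsin intron 2, end: cttccctaacccaaatgaccctCAG
Pcyt2 intron 8, start: GTATCCTCtgctgcc
Pcyt2 intron 8, end: ttactgcttcttaatctggataTAG

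The members' mean MSI over the 9 WT progenitor libraries had a median of 40.19%, with quartiles of 34.25% and 50.19% and a highest value of 92.96%. There were 153 members at 50% or more and 34 at 70% or more. The median SD over the 9 libraries was 7.154 percentage points, which includes the differences between the 3 cell types. Among all 97260 introns with at least 10 spliced reads in every one of these libraries, the median MSI was 1.488%, and 1004 reached 30% when no minimum was set on the border reads. At the threshold itself lay intron 12 of Cdc25c at 30.02% and intron 11 of Matk at 30.01% just inside, with intron 2 of Cox6b2 at 29.99% and intron 2 of Fam173b at 29.95% just outside.

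**Figure D1:**
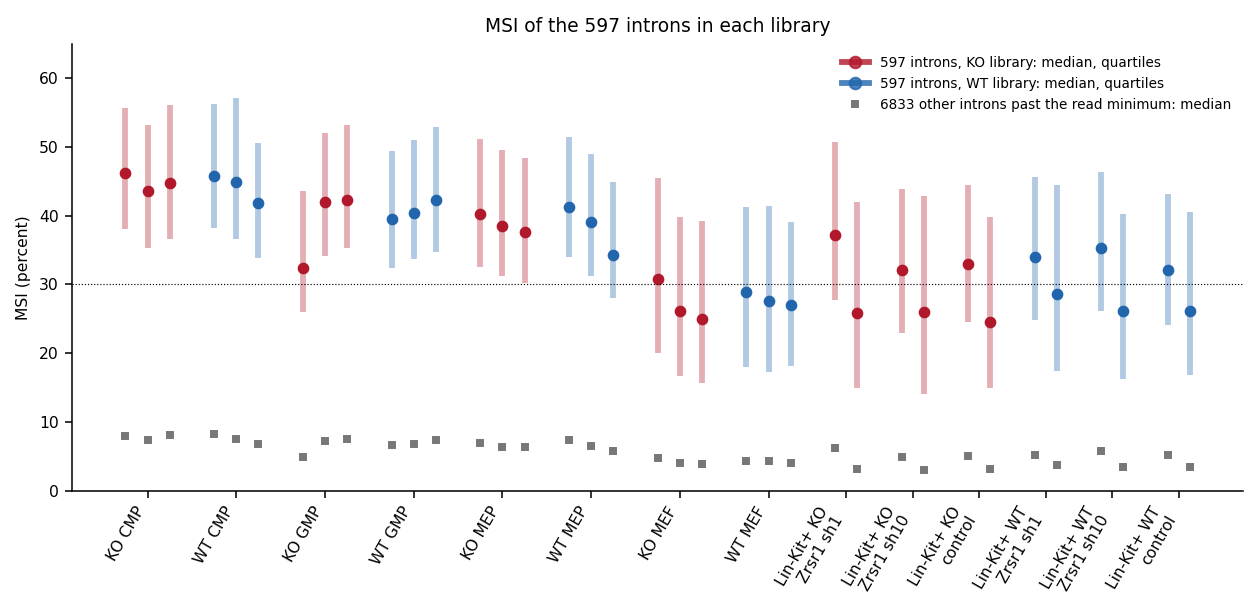
MSI (percent) of the 597 members in each of the 36 libraries, with a point at the median and a bar from the lower to the upper quartile, KO left of WT in each cell type and Zrsr1 hairpins left of the control hairpin; grey squares are medians of the 6833 introns of the comparison set. Library medians were 32.44 to 46.28% for progenitors, 25 to 30.84% for MEF and 24.52 to 37.14% for Lin-Kit+ cells.

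A high MSI did not always mean that an intron was mostly left in the transcript. For 86 members (14.4%), against 211 introns of the comparison set (3.09%), another listed junction that overlaps the intron had more spliced reads, so the counted junction was a minor form. Their median MSI was 47.66%, but it was 13.24% when the border reads were set against the most used overlapping junction, with 35 under 10% and 14 at 30% or more. The other 511 members (85.6%), against 6622 introns of the comparison set (96.9%), were themselves the most used junction, with a median MSI of 39.28%. Against the most used junction the median over all members was 37.66%, against 7.092% in the comparison set.

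The highest values came from both kinds. Intron 1 of Maz, a zinc finger transcription factor, had an MSI of 92.96%, but its junction had 225 spliced reads in the 9 libraries while an overlapping one had 39814, and its value against that junction was 7.031%. Intron 3 of Rpl13a, a ribosomal protein gene, had 92.2% from 236 spliced reads beside 344209 on an overlapping junction, and 0.8403% against it. The same held for intron 7 of Hnrnpa1 (88.52%, or 1.606% against the most used junction) and intron 6 of Rbm3, a cold-inducible RNA-binding protein (87.23%, or 4.016%). For these 4 introns the junction that was counted carried a small part of the spliced reads of the region. Genes such as Rpl13a and Hnrnpa1 have processed copies elsewhere in the genome, and how the authors counted reads that match several places is not given, so their values are uncertain. The Rpl13a intron and intron 6 of Nop56 are also overlapped by an exon of another gene on the same strand.

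Among introns that were the most used junction, intron 16 of Zfp207, which encodes a microtubule-binding zinc finger protein, had 85.71%, and intron 8 of Cd163, a haemoglobin scavenger receptor of macrophages, 85.64%. Intron 6 of Apbb3, an adaptor that binds the amyloid precursor protein, had 79.41%, and intron 5 of Mapk8ip3, a scaffold of JNK signalling, 79.06%. Introns of intermediate kind were intron 6 of Nop56, a core protein of box C/D small nucleolar particles (86.89%, or 25% against the most used junction), intron 7 of Cdc7, a kinase that fires replication origins (80.48%, or 33.82%), and intron 3 of Pip4p1, a lysosomal phosphoinositide phosphatase (79.44%, or 20.63%). Predicted or unnamed genes were not among the named ones, although introns of Gm21887 (91.62%), AC102496.1 (88.89%) and Gm21811 (84.83%) were as high.

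**Figure D2:**
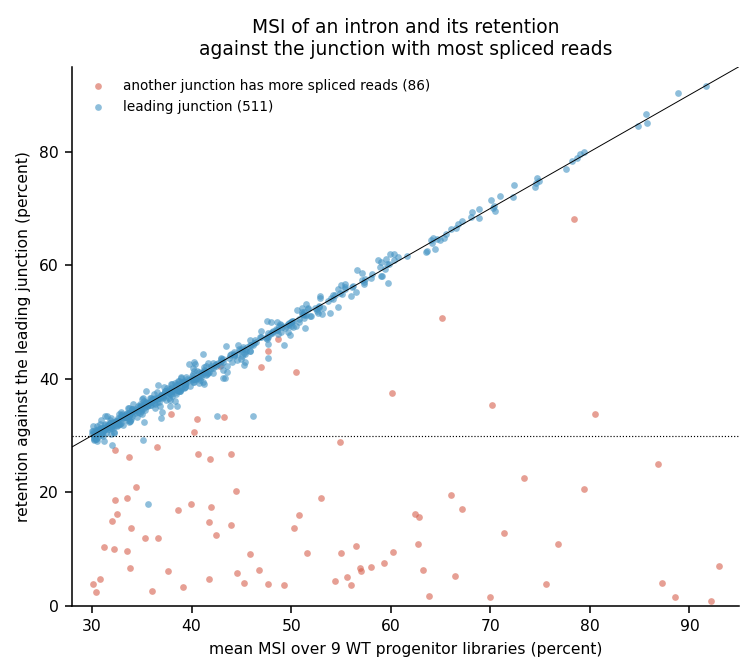
Mean MSI of each member in the 9 WT progenitor libraries (x axis, percent) against the same border reads set against the most used overlapping junction (y axis, percent). The 511 members that are themselves the most used junction lie near the diagonal, not on it. The x axis averages libraries while the y axis pools their reads (35.1 and 29.15% for Itga2b intron 7). The 86 others, among them Maz and Rpl13a, are set against a junction with more spliced reads.

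Another 6 members were shorter than 60 bases, against 6 in the whole comparison set, and were gaps of 1 to 4 bases in an annotated transcript. Intron 2 of Oaz1 and intron 2 of Oaz2 are each 1 base long and had MSI of 50.22% and 50.1%, with an SD of 0.0607 and 0.227 points over the 9 libraries. These genes encode ornithine decarboxylase antizymes, known for a programmed frameshift during translation, for which an annotation leaves out a base. Intron 4 of Ankzf1 (1 base, 32.7%) and introns of Gm10800 (4 bases), Gm3608 (1 base) and A930035D04Rik (2 bases) were the others, so these 6 are not introns in the usual sense.

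The members lay in 440 host genes on 20 chromosomes, of which 334 held 1 member, 72 held 2 and 34 held at least 3, and they merged into 560 separate regions. The 4746 other introns of these genes with at least 10 spliced reads in all 9 libraries had a median MSI of 3.803% (quartiles 1.297% and 9.029%), against the 1.488% of all 97260 introns with such reads. They are introns that the rule left out, so low values follow in part from the choice. In 336 of the 418 host genes that had such introns their median was under 10%. Ankzf1, which encodes a ribosome-associated quality control factor, held the most members, 7, of which 1 is the 1-base gap above and the others lay between 33.6% and 57.07%, while its 5 other introns had a median of 12.36%. Plekhn1 and Dennd6b held 4 each with maxima of 72.34% and 72.33%, and Ppox, an enzyme of haem synthesis, 4 between 40.8% and 59.05%. Abca7, a lipid transporter with 45 measured introns, had 4 members of at most 37.91% among others with a median of 4.388%.

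The members were somewhat longer than the comparison set and their splice sites scored somewhat lower, while their annotation differed more. Their median length was 504 bases (quartiles 201 and 1128), against 431 (157 and 1086) in the comparison set. Introns of 5000 bases or more were 3.18% of the members and 1.48% of the comparison set. The first intron of the transcript made up 10.7% of members and 5.15% of the comparison set, and the last intron 15.7% and 14.9%. Noncoding transcripts carried 7.87% of members and 1.24% of the comparison set, and the coding region 85.1% and 94.8%. An exon of another transcript on the same strand spanned the whole intron for 290 members (48.6%), against 1876 (27.5%) in the comparison set, and 246 members (41.2%) against 24.2% were spanned by a transcript that GENCODE classes as retaining an intron. No exon of the same strand overlapped 109 members (18.3%), against 41.3% of the comparison set.

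The rule itself asked for reads on both borders, and the values here are from the 9 libraries that chose the introns. Reads also lay along the intron. The border with fewer reads had a median of 0.7645 times the reads of the other in members and 0.7418 times in the comparison set, and 84.3% of members had borders within 2 times of each other, against 82.5%. The deposited covered fraction of the intron was 1 in all 9 libraries for 525 members (87.9%), against 80.0%. Being the most used junction, with borders within 2 times and a covered fraction of at least 0.9, held for 440 members (73.7%), against 78.7%. An exon on the opposite strand lay over a border in 18 members (3.02%), against 0.688%, and since strand is not recorded in the files these values may hold reads of the antisense gene. A small RNA gene lay inside 15 members (2.51%), against 2.17%.

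Splice site letters could be read for 287 members and 1873 introns of the comparison set, all of them spanned by an annotated exon. GT-AG ends were held by 278 members (96.9%) and 98.3% of the comparison set, and GC-AG ends by 8 (2.79%) and 1.33%. A splice site score, the sum over positions of the log2 ratio of a base's frequency in the comparison set to 0.25, had a median of 7.205 in members and 7.777 in the comparison set at the 5′ site, and of 7.882 and 8.921 at the 3′ site. The 5′ score was 1.01 for the Gtpbp6 intron printed above, under the lower quartile of 5.183 for members. Among coding introns 234 of 260 members (90%) held a stop codon in frame, against 88.1%, and 4 (1.54%), against 3.44%, kept the reading frame open. These are descriptions of introns chosen by their MSI, and the sequenced ones are shorter (median 278 bases) than the members as a whole.

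**Figure D3:**
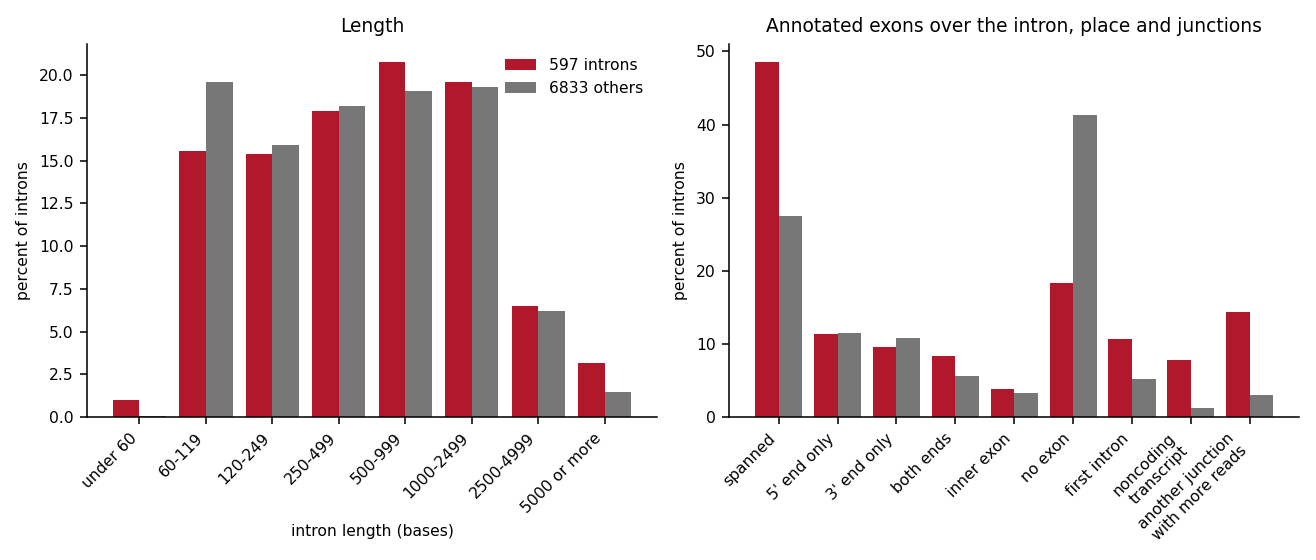
Percent of the 597 members (red) and of the 6833 introns of the comparison set (grey) in each class of length, left, and with each kind of exon overlap, place or competing junction, right. Members more often were first introns (10.7% against 5.15%), lay in noncoding transcripts (7.87% against 1.24%) or were spanned by an annotated exon (48.6% against 27.5%).

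The share of members differed between groups of genes. Of introns past the read minimum 8.03% were members, and the share was 6 of 40 (15%) in genes of SR proteins, the serine- and arginine-rich activators of splicing, and 5 of 20 (25%) in genes of the CLK and SR protein kinases. The kinase introns were Clk1 introns 3 and 4 (51.11% and 40.35%), Clk4 intron 3 (48.53%), Clk2 intron 4 (45.02%) and Srpk1 intron 10. Srsf6 held 3 overlapping members at 61.63%, 47.68% and 38.35%, which share borders and are not independent. Among hnRNP genes 9 of 108 introns (8.33%) were members. In the joint list of core spliceosome and splice site recognition genes the count was 4 of 89 (4.49%), with members in U2af1l4, Luc7l and Tia1 among them. None of 23 introns in nonsense-mediated decay genes was a member.

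Outside splicing, members made up 6 of 29 introns (20.7%) in DNA repair genes, with intron 8 of Rad52, a recombination mediator, at 60.29%, and 5 of 20 (25%) in haematopoietic regulators. The haematopoietic list had introns past the read minimum in only 6 genes, and its members lay in 3 of them. They were introns 6, 8 and 9 of Csf2ra, the receptor chain for GM-CSF (52.58%, 50.48% and 37.71%), intron 5 of Irf3 (36.65%) and intron 15 of Stat2 (34.62%). In genes of ABC transporters and the lysosome the count was 8 of 60 (13.3%), in small nucleolar RNA hosts 13 of 127 (10.2%), in genes of tRNA synthesis and modification 4 of 80 (5.0%) and in chromatin regulators 3 of 60 (5.0%), with intron 16 of Hdac10, a deacetylase, at 58.09%. Intron 5 of Ogt, the O-GlcNAc transferase and a known detained intron, had 59.97%. These counts are small, and they were not tested.

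Differences between progenitor types were tested in the KO libraries, which the choice did not use. Introns of Arhgef1, Arglu1, Srsf6, Luc7l and Tm7sf2 had lower values in MEP than in CMP with edgeR, and introns of Itga2b and Tfr2 were higher in MEP than in GMP; of these limma called the Arhgef1 ones relative to CMP, and none of the others named here. Effects are differences in the log2 ratio of border reads to spliced reads with their standard error, and p-values come from edgeR's quasi-likelihood test of differential splicing with Benjamini-Hochberg adjustment over all introns tested. Members tended to have a lower MSI in MEP and GMP than in CMP. Library medians of the MSI averaged 38.78% ± 1.34 in KO MEP, 38.91% ± 5.61 in KO GMP and 44.89% ± 1.35 in KO CMP (SD, n = 3 each), and the KO GMP library of mouse 1 stood apart at 32.44%. The comparison set moved too, at 6.594% ± 0.347, 6.572% ± 1.45 and 7.783% ± 0.382.

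Between KO MEP and KO CMP, 26 of 597 members were lower in MEP and none was higher at an adjusted p under 0.05, against 0.783% of all introns called in either direction (0.193% higher and 0.59% lower). That is 4.36% of members, and 1.52% of the comparison set. Of the 26 calls 16 were among the 511 members that were the most used junction, whose median difference was −0.31. The others were on minor junctions, and some calls, as in Arhgef1 and Srsf6, are of overlapping introns. The median difference was −0.34 for members, −0.24 for the comparison set and −0.19 for all introns. After centring each library it was −0.14 for members and 0.01 for all introns. By DESeq2 9 members were called (0.615% of all introns) and by limma 3 (0.188%, or 1 and 0.186% after centring each library), and with the mouse as a block edgeR called 20 (0.538%). The 3 that limma called are the overlapping introns of Arhgef1. It was edgeR again that called 10, 15 or 11 members without the KO CMP library of mouse 1, 2 or 3 and 13 or 11 without the KO MEP library of mouse 2 or 3.

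Between KO MEP and KO GMP 2 members were higher and 6 lower, 1.34% against 0.659% in the comparison set and 0.616% of all introns (0.306% higher and 0.31% lower). Among the 511 members that were the most used junction, 2 were higher and 2 lower. The shares of all introns were 0.594% by DESeq2, 0.371% by limma, 0.36% by limma after centring and 0.53% with the mouse as a block, which called 5, 1, 1 and 8 members. The median difference was 0.01, which was −0.17 (all introns −0.20) without the KO GMP library of mouse 1; 5 were called without mouse 2 of either group. Between KO GMP and KO CMP 2 members were lower and none higher, 0.335% against 0.22% in the comparison set and 0.115% of all introns (0.0383% higher and 0.0766% lower). That was 60 introns, or 26 (0.0498%) with the mouse as a block, which also called 2 members. Without 1 library 0 to 3 members were called, and 0 by DESeq2 (0.0708% of all introns), limma (0.00383%) and limma after centring (0.00957%), beside 106 members at an unadjusted p under 0.05 by edgeR. The median there was −0.35 for members, −0.29 for the comparison set and −0.20 for all introns. For members and all introns it was −0.16 and −0.01 after centring, and −0.13 and 0.02 without the KO GMP library of mouse 1.

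Arhgef1, a guanine nucleotide exchange factor of blood cells, had the smallest adjusted p of the members between progenitor types. It holds 3 overlapping members that share borders (chr7, + strand, mm10). The MSI of intron 14 (chr7:24918532-24919183) was 17.47, 11.77 and 13.76% in KO MEP of mice 1, 2 and 3, 35.54, 36.12 and 36.3% in KO GMP and 46.38, 49.21 and 41.54% in KO CMP. No MEP value reached any GMP or CMP value. The log2 ratio of Arhgef1 intron 14 was −2.34 ± 0.33 in MEP relative to CMP (edgeR adjusted p = 3.16e-05) and −1.76 ± 0.33 relative to GMP (adjusted p = 0.000918). The longest of the 3 (chr7:24918001-24919630), a minor junction, had 18.22, 17.89 and 12.66% in KO MEP, 86.67, 77.3 and 82.27% in KO GMP and 77.41, 79.83 and 59.6% in KO CMP. That Arhgef1 intron differed by −4.58 ± 0.47 between MEP and GMP (edgeR adjusted p = 7.14e-09). For intron 14 the call relative to GMP was lost with limma, with and without centring, and the call relative to CMP with limma after centring.

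In the other direction, intron 7 of Itga2b (chr11:102465938-102466256, − strand), the αIIb integrin of megakaryocytes and platelets, had 61.54, 48.39 and 38.61% in KO MEP, 17.26, 23.7 and 24.61% in KO GMP and 30.53, 27.88 and 28.93% in KO CMP. MEP was above GMP and CMP in every library, by 1.81 ± 0.42 relative to GMP (edgeR adjusted p = 0.00435) and by 1.24 ± 0.42 relative to CMP (adjusted p = 0.0738). Intron 18 of Tfr2 (chr5:137583633-137583925, + strand), transferrin receptor 2, which senses iron in erythroid cells, had 49.4, 42.97 and 42.74% in KO MEP, 24.58, 27.37 and 33.23% in KO GMP and 46.97, 51.7 and 48.07% in KO CMP. GMP was the low group without overlap, by −1.28 ± 0.34 relative to CMP (edgeR adjusted p = 0.0307), and MEP exceeded GMP by 1.05 ± 0.34 (adjusted p = 0.0352). The Tfr2 calls, GMP to CMP and MEP to GMP, were lost under 8 and 9 of the alternatives tried, among them DESeq2, limma and leaving out any 1 of 5 libraries in each, and the Itga2b call under 3, namely limma, limma after centring and edgeR without the KO MEP library of mouse 1.

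Introns of some splicing regulators were lower in MEP. Others were not called relative to CMP, among them Clk1 intron 3 (edgeR adjusted p = 0.117), Srsf5 intron 6 (0.19) and Clk2 intron 4 (0.935). Intron 2 of Arglu1 (chr8:8681468-8683747, − strand), which encodes a splicing modulator, had 40.98, 41.04 and 45.57% in KO MEP, 48.55, 63.23 and 67.42% in KO GMP and 66.61, 68.97 and 74.45% in KO CMP. No MEP value reached any GMP or CMP value, while GMP and CMP overlapped, with −1.66 ± 0.39 in MEP relative to CMP (edgeR adjusted p = 3.34e-05) and −1.02 ± 0.39 relative to GMP (adjusted p = 0.0125). Intron 3 of Srsf6 is in the 3′ UTR of a transcript with 3 introns, and lies inside coding intron 2 of a transcript with 5. Intron 3 had 59.12, 49.54 and 30.15% in KO MEP and 74.37, 71.86 and 76.95% in KO CMP. Its difference was −1.78 ± 0.50 (edgeR adjusted p = 0.00149). Intron 1 of Luc7l, a factor that helps define 5′ splice sites, was also lower, by −1.77 ± 0.47 (adjusted p = 0.00666). With limma the Arglu1, Srsf6 and Luc7l calls relative to CMP were all lost, with and without centring. The Srsf6 call was lost with DESeq2 too, and the Luc7l call with the border of fewer reads and without the CMP library of mouse 2 or the MEP library of mouse 3. The Arglu1 call relative to GMP was lost under 7 alternatives, among them DESeq2, limma and leaving out the GMP library of mouse 2 or 3 or the MEP library of mouse 1 or 2.

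Intron 1 of Tm7sf2, a sterol reductase, was lower in MEP too, with 31.07, 16.38 and 9.091% in KO MEP and 58.14, 50.44 and 68.32% in KO CMP. It differed without overlap by −2.78 ± 0.58 (edgeR adjusted p = 0.00728), a call lost under 6 alternatives, among them limma and leaving out the CMP library of mouse 3 or the MEP library of mouse 2 or 3. Intron 5 of Zfp740 differed by −2.25 ± 0.56 (adjusted p = 0.0283) and intron 4 of Tmpo, a protein of the nuclear lamina, by −1.14 ± 0.36 relative to GMP (adjusted p = 0.0144), both on minor junctions. Lower in GMP than in CMP was intron 9 of Hnrnpa2b1, in the 3′ UTR of an hnRNP gene and also on a minor junction, with 34.93, 55.5 and 56.63% in KO GMP and 68.91, 72.34 and 72.1% in KO CMP. The difference was −1.37 ± 0.41 (edgeR adjusted p = 0.00709), and the Zfp740, Tmpo and Hnrnpa2b1 calls were lost under 9, 7 and 5 alternatives. One of these for Zfp740 was the mouse as a block (adjusted p = 0.0609).

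**Figure D4:**
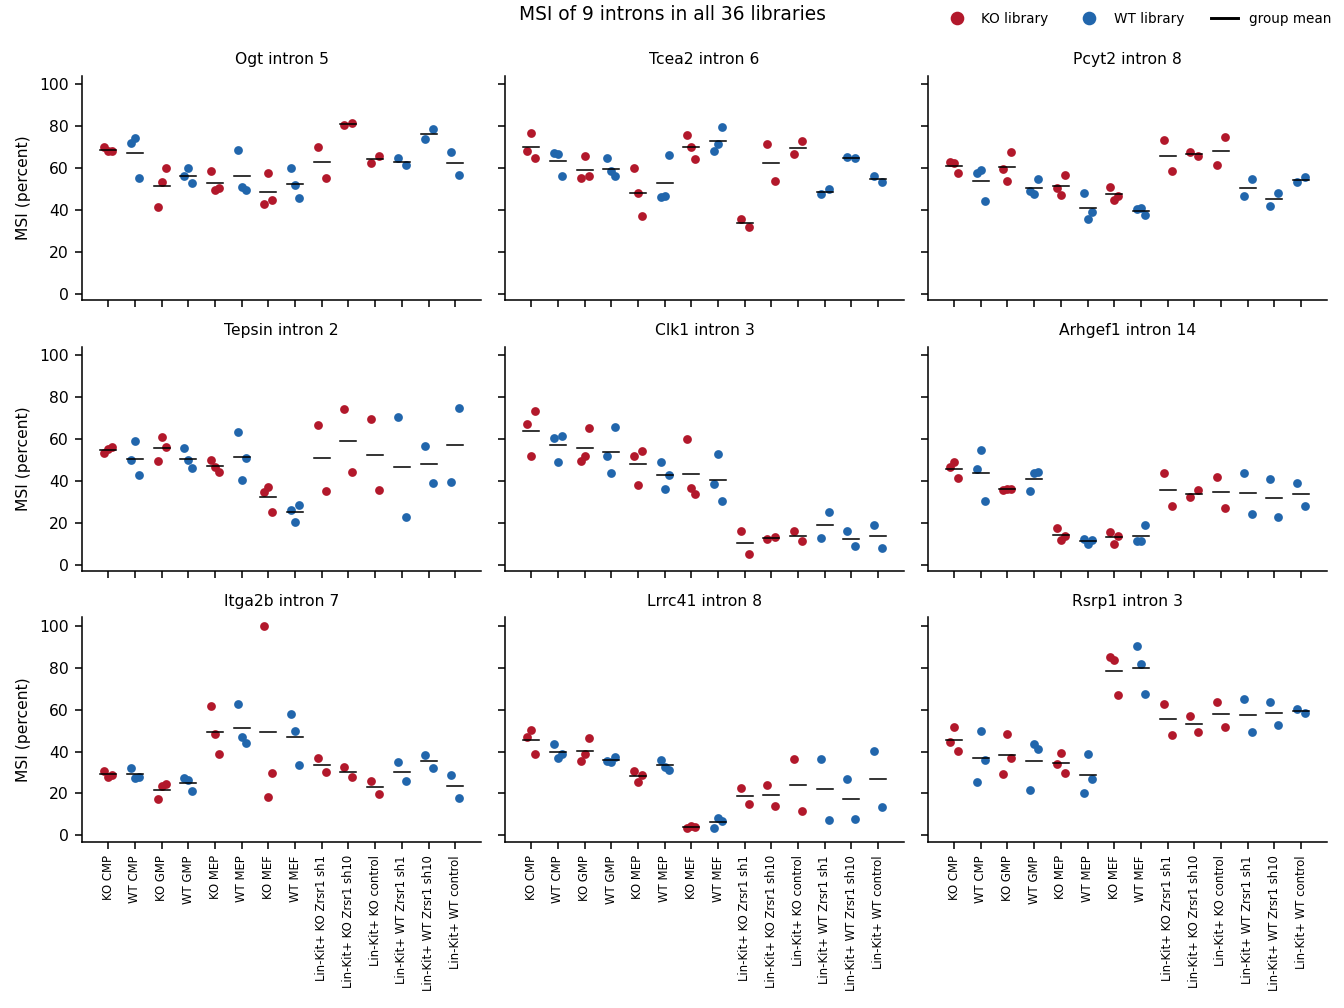
MSI (percent) of 9 introns named in the text, 1 panel each, with a point for each of the 36 libraries (red KO, blue WT) and a line at the group mean. Arhgef1 intron 14 is at 11.77 to 17.47% in KO MEP, and Ogt intron 5 at 43.08 to 57.79% in KO MEF.

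In fibroblasts many of these introns had a lower share of unspliced reads. Counts of CMP, GMP and MEP were summed per mouse, so that 3 KO MEF stood against 3 KO mice. Of 597 members 280 were lower and 12 higher in KO MEF than in KO progenitors, 48.9% called, against 21.6% of all introns tested (18.9% lower and 2.63% higher). An intron could pass the read filter of this test through the summed progenitor counts alone. All 597 members were tested here, against 558 in the test of MEF libraries alone. Introns of Relch, Acap1 and Tfr2 are among the 280 but did not pass the filter in MEF alone. Introns of the comparison set, which pass the same read minimum, were called in 44.3% of cases, so the members' share was near that of other introns past the minimum; depth was not matched further. The median difference was −0.93 for members, −0.71 for the comparison set and −0.50 for all introns. When each library was centred on its median ratio, the medians became −0.50 for members and −0.07 for all introns, and limma then called 11 members higher and 89 lower, beside 2143 (3.41%) higher and 3853 (6.13%) lower of all introns, 9.54% in all. The uncentred edgeR test called 1651 higher and 11903 lower. DESeq2 called 258 members and 16.1% of all introns, and limma without centring 183 and 14.3%. Introns chosen for high values in WT progenitors can be lower elsewhere through that choice alone, and MEF libraries had 3.07 to 3.47 border reads per 100 spliced reads, against 3.85 to 5.98 in progenitors; the part of either in these counts was not tested.

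The 280 lower members had a median MSI of 18.94% in KO MEF and 39.12% in KO progenitors. Border reads in CPM fell by a median of 1.76 on the log2 scale while spliced reads in CPM fell by 0.26. For the 12 higher members the medians were 68.18% and 46.44%, with border reads at −0.35 and spliced reads at −1.74. The 305 members not called had border reads at −1.24 and spliced reads at −0.96, and all members −1.42 and −0.63. These groups are formed by the test itself, so the medians are a description of the calls. A group mean of at least 30% was still held by 259 members in KO MEF and 266 in WT MEF, and a mean under 10% by 41 and 38. Over the 597 introns, the Spearman correlation between KO MEF and KO progenitor means was 0.601, and between KO GMP and KO CMP 0.841, values that share the host gene's depth.

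Introns 7 and 8 of Lrrc41 were among the large differences. Intron 8 of Lrrc41 (chr4:116095915-116096142, + strand), an adaptor of a cullin ubiquitin ligase, had 4.567, 3.84 and 3.42% in KO MEF and 25.55 to 50.41% in KO progenitors. It differed without overlap by −3.85 ± 0.29 (edgeR adjusted p = 3.94e-08), and its neighbour, intron 7, by −3.93 ± 0.38 (adjusted p = 5.92e-08). An antisense exon lies over a border of both of these Lrrc41 introns, so their border reads may come from either strand. Chosen after its values were seen, intron 1 of Snhg12, a noncoding host of small nucleolar RNAs, had 4.648, 4.113 and 5.305% in KO MEF and 22.16 to 37.28% in KO progenitors, a difference of −3.32 ± 0.30 (edgeR adjusted p = 4.6e-07).

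Other large differences rested on minor junctions or few reads. Intron 23 of Relch, which acts in cholesterol transport, had 3.03, 3.704 and 2.326% in KO MEF and 26.17 to 73.96% in KO progenitors (−4.36 ± 0.33, edgeR adjusted p = 1.09e-07). Intron 6 of Mbnl1, a splicing regulator of the muscleblind family, had 7.623, 5.431 and 6.494% in KO MEF and 42.86 to 59.7% in KO progenitors (−3.72 ± 0.31, adjusted p = 5.7e-07). Both are junctions with fewer reads than an overlapping one. Intron 5 of Acap1, a regulator of Arf6, had no border read beside 5, 14 and 6 spliced reads in KO MEF, too few for a size to be given.

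A small group was more retained in fibroblasts. Intron 3 of Rsrp1 (chr4:134925433-134926734, + strand), which encodes an arginine- and serine-rich protein, had 83.68, 66.8 and 85.28% in KO MEF and 29.32 to 51.47% in KO progenitors. All MEF values exceeded all progenitor values, by 2.58 ± 0.49 (edgeR adjusted p = 0.000348). Intron 1 of Tssc4, in the 5′ UTR of a factor for assembly of the U5 particle, had 67.32, 57.07 and 70.83% in KO MEF and 22.47 to 42.09% in KO progenitors (2.01 ± 0.38, edgeR adjusted p = 0.000258). Intron 5 of Ccnl2, cyclin L2, which acts in splicing, had 65.3, 66.72 and 81.85% in KO MEF and 46.56 to 58.83% in KO progenitors (1.21 ± 0.41, edgeR adjusted p = 0.00336). Intron 1 of Eme2, part of a structure-specific nuclease and overlapped by an exon of another gene (1.36 ± 0.37, adjusted p = 0.012), and intron 2 of Cxxc5, a zinc finger protein (1.28 ± 0.30, adjusted p = 0.00387), were higher as well. The Ccnl2 and Eme2 calls were lost with limma, the Ccnl2 call also with the border of fewer reads (0.27), and the Eme2 call also without the KO progenitors of replicate 2 or the KO MEF library of replicate 6.

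Neighbouring introns of a gene could go different ways. In Ankzf1, introns 5 and 6 were lower in KO MEF than in KO progenitors (−1.38, edgeR adjusted p = 0.0362, and −1.68, adjusted p = 0.0049) and intron 12 was higher (1.02 ± 0.39, adjusted p = 0.0194). This trio was singled out after its values were seen. The calls of introns 5 and 12 were each lost under 7 alternatives, among them limma and leaving out any 1 of the 3 KO mice, and that of intron 6 after centring.

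By gene group, the members called lower in fibroblasts were 5 of 6 in SR protein genes, 5 of 9 in hnRNP genes, 7 of 13 in small nucleolar RNA hosts and 7 of 8 in ABC transporter and lysosome genes, and none was called higher. They stand beside 48.9% of all members called, 44.3% of the comparison set and 21.6% of all introns. Some overlap or share a gene: they lie in 3 separate regions of 3 SR protein genes, 3 of 3 hnRNP genes, 6 of 5 small nucleolar RNA hosts and 7 of 4 transporter and lysosome genes. Examples were intron 3 of Srsf6 at 27.61, 21.83 and 45.65% in KO MEF and 30.15 to 76.95%, which overlap, in KO progenitors (−1.74 ± 0.47, edgeR adjusted p = 0.00124), intron 8 of Nop56 (−1.79 ± 0.29, adjusted p = 0.000165) and intron 13 of Abca7 (−2.84 ± 0.53, adjusted p = 0.000146). The Nop56 intron was picked after its values were seen. Intron 6 of Nop56, which shares its 3′ border, went the other way without a call (0.99 ± 0.33, edgeR adjusted p = 0.0611). Among chromatin genes 2 of 3 members were called lower, with intron 13 of Setdb1, a histone H3 methyltransferase, at −1.40 ± 0.40 (edgeR adjusted p = 0.00381). The Srsf6 and Setdb1 calls were lost with limma. In the CLK and SR kinase group 1 of 5 passed. None passed in either direction of 4 in core spliceosome and splice site recognition genes, 4 in tRNA enzymes or 5 in the haematopoietic list. DNA repair genes had 3 members called lower and 1, in Eme2, higher of 6. These groups hold few members, and they were not tested against each other.

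**Figure D5:**
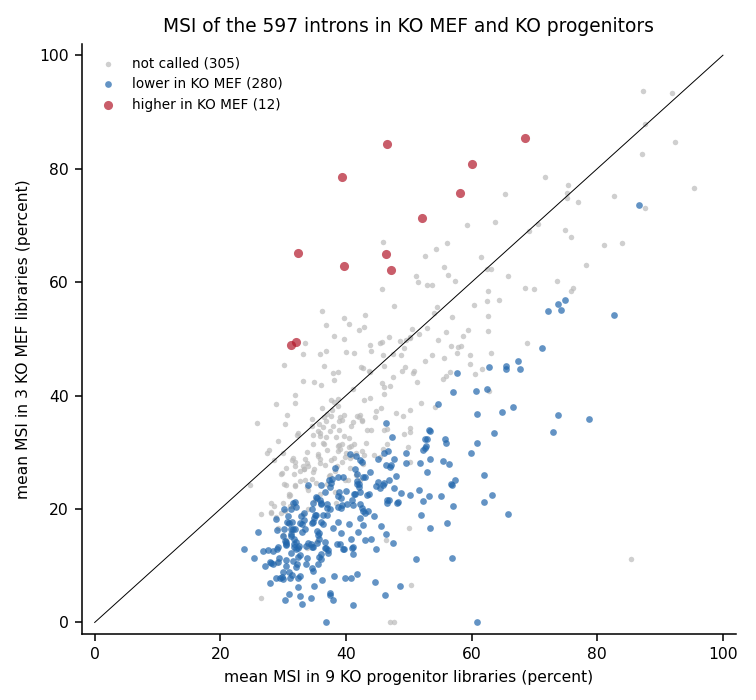
Mean MSI (percent) of each member in KO MEF (y axis) against KO progenitors (x axis), coloured by the edgeR call, with a line where both are equal. The 280 members called lower lie below the diagonal and the 12 called higher above it.

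Lin-Kit+ cultures are set beside sorted progenitors with no test, because library kit, culture and transduction differ between them. Library medians were 32.13 to 37.14% in the first experiment and 24.52 to 28.57% in the second, the second below every sorted progenitor library, and the comparison set moved with them, at 4.95 to 6.284% and 3.046 to 3.729%. Intron 3 of Clk1 was at 16.24 and 11.24% in the KO control-hairpin libraries and 18.97 and 7.921% in the WT ones. All 12 Lin-Kit+ values, 5.013 to 25.28%, lay below the KO progenitors' 37.9 to 73.15% and the 33.65 to 60% of KO MEF. Intron 3 of Clk4 had 6.383 to 29.94% in Lin-Kit+ cells, against 40.94 to 61.9% in KO progenitors, and Srsf6 introns 9.463 to 30.19%. Intron 5 of Ogt did not follow, at 55.56 to 81.47% in Lin-Kit+ cells, 43.08 to 57.79% in KO MEF and 41.74 to 70.21% in KO progenitors.

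The members' MSI differed little, on the median, between KO and WT cells. In progenitors, where WT values chose the members, KO and WT are set side by side without a test. The median KO minus WT difference was 0.474 percentage points in CMP, −1.77 in GMP and 0.494 in MEP. Members with no overlap between the 3 KO and 3 WT libraries numbered 21 higher and 19 lower in CMP (3.52% and 3.18%, against 5.28% and 2.96% of the 7430 introns past the read minimum), 9 and 29 in GMP (1.51% and 4.86%, against 1.29% and 3.77%) and 20 and 17 in MEP (3.35% and 2.85%, against 3.45% and 3.16%). The GMP values include the low library of KO mouse 1.

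In fibroblasts, none of 558 members tested differed between KO and WT at an adjusted p under 0.05 by edgeR, DESeq2 or limma, and 0.0% of all 32573 introns did by edgeR. At an unadjusted p under 0.05 edgeR gave 12 members, 7 higher and 5 lower, and 1397 introns in all. The quartiles of the members' differences were −0.23 and 0.20, with a median standard error of 0.34, so a change of that size was not detectable in a single intron. The Spearman correlation of the members' means between KO and WT MEF was 0.926.

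The members with U12-type ends were 3 of 287 with sequence (1.05%), against 14 of 1873 (0.747%) in the comparison set. The rule was a start within 1 mismatch of ATATCCTT or GTATCCTT, an end in AG or AC, and TCCTTAAC within 2 mismatches in the last 40 bases, on the transcribed strand. Intron 8 of Pcyt2, which encodes an enzyme of phosphatidylethanolamine synthesis, had a higher mean in KO than in WT cells of each type. It had 62.83, 62.38 and 57.72% in KO CMP against 57.75, 58.96 and 44.57% in WT CMP, 59.88, 53.97 and 67.54% in KO GMP against 49.16, 47.59 and 54.69% in WT GMP, and 50.52, 47.06 and 57.01% in KO MEP against 48.37, 35.95 and 39.05% in WT MEP. KO and WT overlapped in each of the 3. In MEF it had 44.8, 46.58 and 51.22% in KO and 40.89, 37.65 and 40.58% in WT, without overlap, and a difference of 0.46 ± 0.27 that did not pass (edgeR adjusted p = 0.999). In Lin-Kit+ control-hairpin cells it had 61.64 and 74.86% in KO and 53.21 and 55.8% in WT, without overlap. The difference was 0.87 ± 0.86 in the fit without the experiment as a block, and did not pass either. With that block 0 members passed in this contrast.

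The other 2 did not separate by genotype in MEF. Intron 2 of Tepsin, an accessory protein of the AP-4 coat, had 37.21, 25 and 34.81% in KO MEF and 20.54, 28.66 and 26.19% in WT MEF, which overlap (0.50 ± 0.34). Intron 6 of Tcea2, a transcription elongation factor, had 70.21, 64.36 and 75.76% in KO MEF and 71.43, 79.66 and 68.0% in WT MEF, which overlap as well (−0.21 ± 0.35). In Lin-Kit+ control-hairpin cells, in the fit without a block, KO minus WT was −0.31 ± 1.4 for the Tepsin intron and 0.9 ± 0.84 for the Tcea2 intron. Neither passed. Tcea2 intron 6 had 68.0, 76.96 and 65.02% in KO CMP against 67.06, 66.74 and 56.38% in WT CMP, and 60, 48.2 and 37.08% in KO MEP against 46.39, 46.67 and 66.1% in WT MEP. The GMP values of this intron and the progenitor values of the Tepsin intron are not listed, so the U12-type introns are described over unequal sets of cells.

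In Lin-Kit+ cells no member passed the threshold by genotype or hairpin in the test without a block. None of 595 members passed between KO and WT cells with the control hairpin by edgeR (0.0% of 46630 introns, 2 members at an unadjusted p under 0.05), between the Zrsr1 hairpins and the control in WT cells (0.0%, 4 members) or between them in KO cells (0.0%, 7 members), and DESeq2 and limma gave 0 in each. With the experiment, which the labels number, as a block, the counts were 0 (0.00214% of all introns), 1 (0.00214%) and 0 (0.0%). The 1 was intron 1 of AI662270, a noncoding gene (chr11:83223652-83224451), lower with the Zrsr1 hairpins in WT cells by −2.27 ± 0.62 (edgeR adjusted p = 0.0265). The quartiles of the members' differences were −0.40 and 0.34 for KO minus WT, −0.28 and 0.50 for the hairpins in WT cells and −0.38 and 0.54 in KO cells. The median standard errors were 1.03, 0.90 and 0.90, and 0.83, 0.71 and 0.71 with the experiment as a block, where 8, 26 and 37 members had an unadjusted p under 0.05. Differences of the size of these errors were not detectable in a single intron.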

How the data were processed

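Per the file headers, each deposited table gives for an intron the counts of reads over its 5′ border, over its 3′ border and spliced across it, the fraction of the intron covered by reads, and the MSI in percent. The authors' MSI equals the formula given above, and the same 219945 introns are listed in all 36 libraries. The submitters' processing notes name the build mm10. Which aligner and which counter were used is not given in the sources used here. Per the labels' protocols a TruSeq kit was used for progenitors and MEF and a NEBNext Ultra kit for Lin-Kit+ cells, and strand is not recorded in the tables. Intron coordinates were matched to GENCODE M21 for gene, place in the transcript, overlapping exons and, where an exon spans the intron, its sequence.

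The members and the gene lists were chosen with earlier results of these data known. The test was edgeR's quasi-likelihood test of differential splicing (diffSpliceDGE, edgeR 4.0.16 in R 4.3.3) on 2 features per intron, border reads and spliced reads, over all introns that passed filterByExpr, with TMM scaling and Benjamini-Hochberg adjustment at 0.05. Effects and standard errors are from limma 3.58.1 on the log2 ratio with 0.5 added to each count. On simulated data the test was cautious when border and spliced reads varied together between libraries, and called more unchanged introns than the threshold allows when they varied apart, so counts from DESeq2 1.42.0 and limma stand beside it. Tables were made with pandas 2.3.3. Comparisons were progenitor types in KO mice, KO MEF against KO progenitors with CMP, GMP and MEP counts summed per mouse (3 against 3), KO against WT MEF, and 3 contrasts in Lin-Kit+ cells, where sh1 and sh10 were pooled. Named introns were the 12 of highest MSI, 1 per gene and without predicted genes; up to 5 called members per direction and comparison with the largest difference and no overlap between groups; up to 3 of each gene list; the neighbours of the threshold; and the U12-type introns. Other introns, such as those of Snhg12, Ankzf1, Irf3 and Stat2, and intron 8 of Nop56, were named after their values were seen. An intron that this rule would name is not reported here.

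Same-numbered progenitor libraries come from the same mouse and are therefore pairs, although the correlation of their deviations from the group means was −0.01751 to 0.04088 over 9 pairs, against −0.03952 to 0.03384 over 18 pairs of other numbers. Lin-Kit+ libraries share a numbered experiment, and there it was 0.1472 to 0.1916 over 30 pairs of the same experiment. Embryos and mice are separate animals per the labels; the Lin-Kit+ experiments are 2 per group. No count was left out, and standard errors cover the spread between these libraries.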

Additional observations from a re-analysis of the deposited data

How the results depend on the processing

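With edgeR, 2 members were called between KO GMP and KO CMP, 26 between KO MEP and KO CMP, 8 between KO MEP and KO GMP and 292 between KO MEF and KO progenitors. In that order DESeq2 gave 0, 9, 5 and 258, limma on the log2 ratio 0, 3, 1 and 183, and limma after centring each library, an alternative chosen after seeing the data, 0, 1, 1 and 100. The border with fewer reads in place of both gave 14 for KO MEP against KO CMP and 275 for KO MEF against KO progenitors. Of the 292 members called there with both borders, 250 were called again and 2 went in the opposite direction. Leaving out 1 library at a time, or all 3 libraries of a KO mouse where they were summed, gave 0 to 3, 10 to 19, 5 to 11 and 215 to 318 calls in the same order (233 to 318 without 1 MEF library), with fewer samples in each test. The number of members was 597, or 153 at a mean MSI of 50% or more, 426 with at least 20 reads, 418 with the MSI from the border with fewer reads, and 614 to 719 when 1 WT mouse was left out. The replicate block for the experiment gave 1 call for the Zrsr1 hairpins in WT Lin-Kit+ cells in place of 0, and the replicate block for the mouse gave 20 for KO MEP against KO CMP and left the counts of the other progenitor comparisons at 2 and 8. In MEF the numbers are only shared, with a correlation of −0.01184 to 0.1039 over 3 pairs, and the replicate block gave 0 calls, as without it. No paired analysis was possible because embryos and adult mice share no number in the comparison of KO MEF with KO progenitors. There the progenitor counts were summed per mouse, and averaging the 3 cell types as separate groups gave 291 member calls and 9891 over all introns in place of 13554. For the introns printed with a test, 474 values under alternatives kept their direction and their side of the threshold, 94 kept the direction and were no longer called, 2 were newly called and 2 reversed. The reversed ones were of Tcea2 intron 6 in MEF, which was not called, at 0.01 with the border of fewer reads and 0.04 without the WT MEF library of replicate 6 (−0.41 to 0.04 without 1 library); the cause was not tested. Depth limits single introns most in the second Lin-Kit+ experiment, where 312 to 400 members passed the read minimum in a library.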
